A study of Mus musculus with 5 samples.

Results

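The T and NK cell genes measured here are 33 genes of T lymphocytes and natural killer (NK) cells: the chains of the T cell receptor complex, the coreceptors, signalling and costimulatory proteins, cytokine and NK receptors, cytotoxic effectors, gut-homing receptors and lineage transcription factors. A probe was assigned to a gene where the RefSeq accession on the array mapped to its symbol. The genes were listed by name, with earlier results of these data known. Of the 33 genes, 32 had a probe (48 probes), 22 entered the test because a probe was found above background on at least 2 arrays, and these stood among 15051 genes or unnamed probes tested. Cd8a had no probe named this way and is not analysed here.

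The samples were colon taken away from tumours at day 56 of a colitis-associated cancer model in C57Bl6 mice that were 10 weeks old at the start. Each had received 7.4 mg/kg of the carcinogen azoxymethane (AOM), followed by 2 cycles of DSS (dextran sulfate sodium, an agent toxic to the colonic epithelium). The 2 villin-TLR4 samples, 1 female and 1 male, came from mice given 1.5% DSS, and the 3 wild-type (WT) littermate samples, all female, from mice given 3% DSS, so that genotype and DSS concentration cannot be told apart. Villin is an epithelial gene whose promoter directs transgenes to the gut epithelium, and TLR4 is the receptor for bacterial lipopolysaccharide. The transgene is therefore aimed at epithelial cells, and lymphocytes were measured only as part of whole tissue. Each sample was hybridised to 1 single-colour oligonucleotide array, and the number of arrays limits the precision.

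T cells recognise peptide on MHC molecules through a receptor whose signal is carried by the CD3 and zeta chains. The coreceptors CD4 and CD8 bring the kinase Lck to that complex, Lck activates Zap70, and Zap70 phosphorylates the adaptor Lat. The colon holds T cells in the lamina propria and between epithelial cells, where the integrin CD103, encoded by Itgae, binds E-cadherin. NK cells share cytokine receptors and the cytotoxic granule with CD8 T cells but have no T cell receptor.

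One WT littermate array, replicate 1, differed from the rest and bears on every result here. It was dim, with 13352 of 35078 gene probes found against 16380 to 19509 on the other arrays, and it carried 1240 spots marked bad against at most 4. Its correlation with the others across genes was 0.885 to 0.895, where the remaining pairs gave 0.945 to 0.973. The lowest level among its probes that were found and lay over 2 background standard deviations (SD) above background was 7.78, against 6.75 to 7.17 on the other arrays, so many levels of T cell genes on it did not stand clear of background. The 9 epithelial markers were found on all 5 arrays, with mean log2 levels of 12.42 to 13.07. The brightest Tlr4 probe differed by 0.01 between genotypes and the second found probe by -0.07, and it is not known whether these probes lie in the transgene, so they do not check the labels.

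Many T and NK cell transcripts were at or near the detection limit of these arrays, while the probes of Il2rg and Ctla4 and the brightest of Cd8b1 lay clear of background wherever they were found. By their best probe, 9 genes were found on all 5 arrays (Cd3e, Cd3d, Lck, Zap70, Cd2, Ctla4, Il7r, Il2rg and Itgae), 13 on 2 to 4 arrays and 2, Cd247 and Cd5, on 1 array. The other 8 were found on none: Trat1, Ncr1, Gzma, Gzmb, Prf1, Ccr9, Tbx21 and Gata3. At least 1 found probe was present for 15 and 20 members on villin-TLR4 replicates 1 and 2, and for 14, 21 and 23 members on WT littermate replicates 1, 2 and 3. Not being found is a statement about these probes and this tissue mixture, not about the absence of the transcript.

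No T or NK cell gene passed the test between villin-TLR4 and WT littermate colon. With limma and Benjamini-Hochberg adjustment over all 15051 genes, 0 of 22 members passed (background 0% of all genes), the lowest adjusted value being 0.87. Before adjustment 0 members had a p under 0.05, against 4.85% of all genes in either direction and 2.15% lower in villin-TLR4, and the lowest was that of Cd28. The median difference, villin-TLR4 minus WT littermate, was -0.13 on the log2 scale with 14 of 22 members below 0, beside a median of 0.01 and 49.1% below 0 over all genes. The 95% intervals of all 22 differences held 0. Differences ran from -0.69 to 1.45 and their standard errors (SE) from 0.23 to 1.08.

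**Figure D1:**
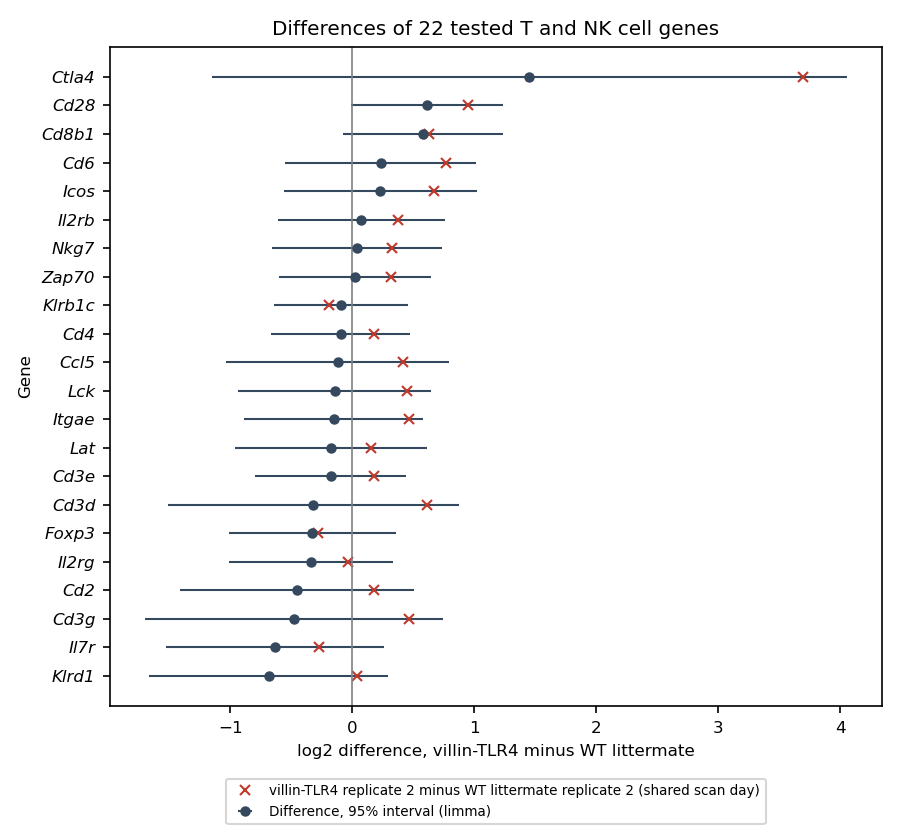
The x axis gives the log2 difference, villin-TLR4 minus WT littermate, of the 22 tested genes with limma 95% intervals, and crosses give the difference between the 2 arrays scanned on the same day. All 22 intervals hold 0, and 18 of 22 crosses lie above 0.

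Over the members, the 2 villin-TLR4 arrays differed from each other by more than the genotype means did. Villin-TLR4 replicate 2 read above replicate 1 for 19 of 22 members, against 46.3% of all genes, by a median of 0.62 (all genes -0.03). The median absolute difference between the genotypes was 0.23, which is between group means, where the former is between single arrays. The median SD over members was 0.44 in villin-TLR4 and 0.18 in WT littermates. Villin-TLR4 replicate 1 was the lowest of the 5 arrays for 16 of 22 members (all genes 16.2%), although the probe was found there for only 9 of these 16. Replicate 2 was the highest for 10 members, all found on it (all genes 14.6%), and WT littermate replicate 1 was the highest for another 10, of which 7 were found on it (all genes 31.3%). WT littermate replicate 1 was the lowest array for 0 of 22 members (all genes 37.8%) and read above replicate 3, scanned on the same day, for 14 (all genes 44.4%). Against the WT littermate mean, villin-TLR4 replicate 1 lay below for 19 members (all genes 47.5%) and replicate 2 above for 16 (all genes 48.8%). Against WT littermate replicates 2 and 3 alone, villin-TLR4 replicate 1 lay below both for 16 members (all genes 34.9%) and replicate 2 above both for 16 (all genes 32.8%). Villin-TLR4 replicate 1 came from a female and replicate 2 from a male mouse, and they were scanned on different days. The part of sex or scan day in this spread was not tested.

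Over the 20 members measured on every array, the mean log2 level was 7.09 and 7.78 in villin-TLR4 and 7.81, 7.32 and 7.38 in WT littermates. The groups overlapped, with WT littermate replicates 2 and 3 between the villin-TLR4 samples. Without Ctla4, whose range was the widest, the means over 19 members were 7.03 and 7.60 against 7.70, 7.31 and 7.38, in the same order. Among the 8 members whose tested probe was found on all 5 arrays, villin-TLR4 replicate 2 read above replicate 1 for all 8 and replicate 1 was the lowest array for 6. In bulk tissue, fewer cells of a type and less RNA per cell cannot be told apart.

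**Figure D2:**
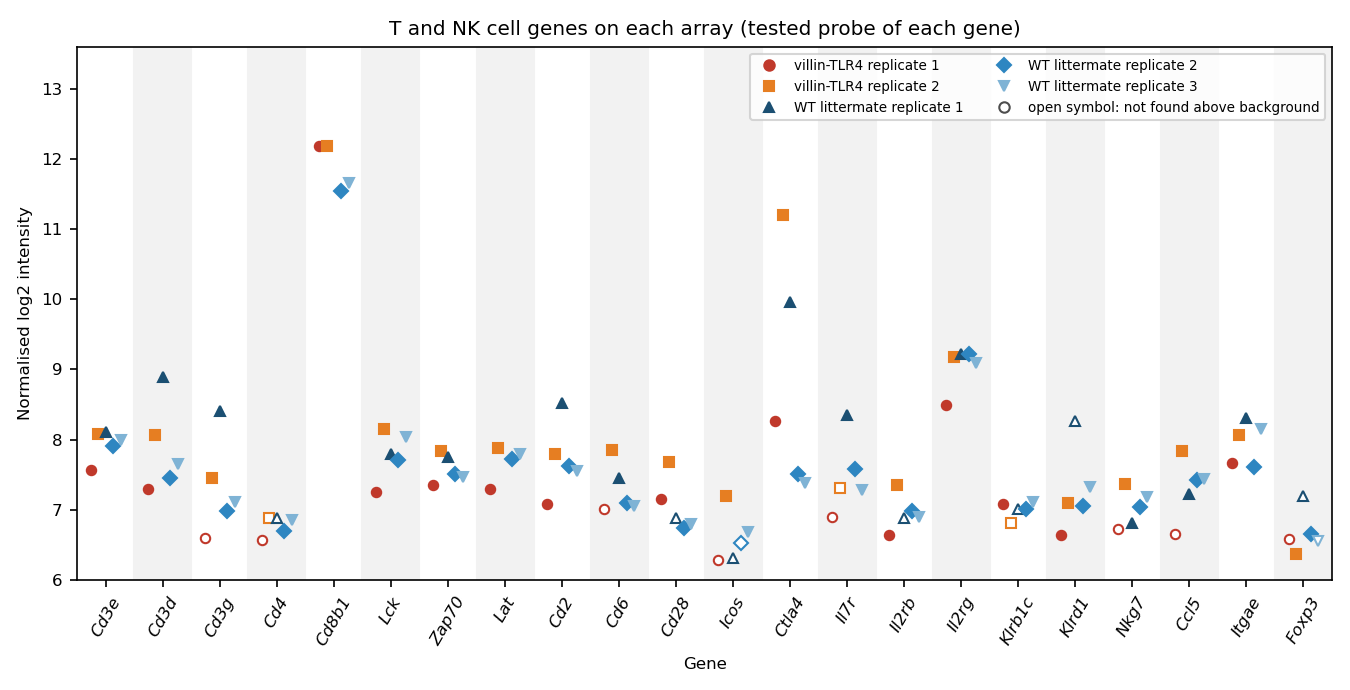
The y axis gives the normalised log2 intensity of the tested probe of each of the 22 genes on each of the 5 arrays, with open symbols where the probe was not found above background. Villin-TLR4 replicate 1 is the lowest symbol for 16 genes, and Ctla4 spans from 7.38 to 11.20.

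The direction depended on which villin-TLR4 sample was used. Without villin-TLR4 replicate 1 the median over members became 0.10 with 6 of 22 below 0, and without replicate 2 it became -0.39 with 17 of 20 below 0. Scan day 3 was the only day with both genotypes. There villin-TLR4 replicate 2 read above WT littermate replicate 2 for 18 of 22 members (all genes 45.8%), with a median of 0.35, in a comparison of 1 male with 1 female sample. Without WT littermate replicate 1 the median was -0.07, with 14 of 22 below 0.

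The T cell receptor complex was represented by its CD3 chains. Cd3e (probe mMC022581), the epsilon chain that pairs with both other CD3 chains, was found on every array and read 7.57 and 8.08 in villin-TLR4 and 8.11, 7.90 and 7.99 in WT littermates. Only villin-TLR4 replicate 1 stood below the others, and the difference was -0.18 ± 0.26 (SE, limma adjusted p = 0.895). Cd3d, the delta chain, read 7.30 and 8.06 against 8.90, 7.45 and 7.65. Villin-TLR4 replicate 2 lay above WT littermate replicates 2 and 3 and below replicate 1, and the difference of -0.32 ± 0.49 turned to 0.14 without WT littermate replicate 1. Cd3g, the gamma chain, read 6.60 and 7.45 against 8.41, 6.99 and 7.12, was not found on villin-TLR4 replicate 1, and gave -0.48 ± 0.51, or -0.04 without WT littermate replicate 1. The 3 CD3 genes thus shared their lowest value, on villin-TLR4 replicate 1, and their highest, on WT littermate replicate 1. Cd2, Cd4, Il7r, Il2rg and Klrd1 had their lowest and highest values on the same arrays, so this order was not particular to the CD3 genes.

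Cd3g, Cd3d and Cd3e are neighbours on chromosome 9, and their promoters are shown here with that of Ctla4, the member that varied most. Each window runs from 250 bases before to 50 bases after the annotated start, 5′ to 3′ on the gene's strand, from RefSeq on GRCm38.p6. Capitals mark matches on either strand to AGGAAG (the ETS family core), CAGNTG (an E-box bound by E proteins) and AGATAA (the GATA family), and TGTGGT (the RUNX family) was also searched.
Cd3g, chr9:44980382-44980681, minus strand: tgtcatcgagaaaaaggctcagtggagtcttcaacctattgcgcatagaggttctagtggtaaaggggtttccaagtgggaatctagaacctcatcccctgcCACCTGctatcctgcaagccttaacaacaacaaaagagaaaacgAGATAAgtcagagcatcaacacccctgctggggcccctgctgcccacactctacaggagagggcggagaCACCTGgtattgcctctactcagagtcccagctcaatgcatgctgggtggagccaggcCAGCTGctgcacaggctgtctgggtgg
Cd3d, chr9:44981536-44981835, plus strand: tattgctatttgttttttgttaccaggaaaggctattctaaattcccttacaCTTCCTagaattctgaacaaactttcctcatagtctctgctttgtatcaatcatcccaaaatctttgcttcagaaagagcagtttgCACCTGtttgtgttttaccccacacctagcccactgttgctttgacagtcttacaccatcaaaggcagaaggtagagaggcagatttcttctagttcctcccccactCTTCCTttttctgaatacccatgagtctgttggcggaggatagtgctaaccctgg
Cd3e, chr9:45009562-45009861, minus strand: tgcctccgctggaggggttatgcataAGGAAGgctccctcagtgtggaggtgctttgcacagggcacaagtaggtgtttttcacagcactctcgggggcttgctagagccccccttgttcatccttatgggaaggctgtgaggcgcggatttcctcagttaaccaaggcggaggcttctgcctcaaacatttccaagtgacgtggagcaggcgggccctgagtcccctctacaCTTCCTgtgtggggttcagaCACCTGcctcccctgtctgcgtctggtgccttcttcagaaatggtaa
Ctla4, chr1:60908775-60909074, plus strand: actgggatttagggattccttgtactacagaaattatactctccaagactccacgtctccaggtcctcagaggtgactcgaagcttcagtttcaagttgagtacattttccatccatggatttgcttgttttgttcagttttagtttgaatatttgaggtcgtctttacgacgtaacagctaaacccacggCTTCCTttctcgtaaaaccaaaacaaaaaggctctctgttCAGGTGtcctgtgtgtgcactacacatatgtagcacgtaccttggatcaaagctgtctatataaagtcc
The E-box letters occurred in all of these windows, 3 times in Cd3g and 1 time in each other window, beside 51.4% of 32851 promoter windows of the same length. The ETS letters occurred 2 times in Cd3d, 2 times in Cd3e and 1 time in Ctla4 (35.4% of windows), the GATA letters 1 time in Cd3g (11.2%), and the RUNX letters in none (16.8%). Of 28 windows found for 23 of the members, 25 held the E-box letters, 18 the ETS, 13 the RUNX and 2 the GATA letters. A match is a description of letters and not a bound site.

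The remaining chains of the complex were hardly measured. Cd247, the zeta chain, was found on WT littermate replicate 3 alone, where its brighter probe read 6.76, and the other arrays read 6.46 to 7.38. The highest of these, on WT littermate replicate 1, was not found above background. Trat1, an adaptor that binds the receptor complex, had 3 probes, all at 5.90 to 6.53 and found on no array.

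The coreceptor probes disagreed with each other. Cd8b1, the beta chain of CD8, had its brightest probe (mMC016272) at 12.19 and 12.18 in villin-TLR4 and at 11.55 and 11.67 on WT littermate replicates 2 and 3, while the spot of replicate 1 was marked bad and dropped from the fit. The groups did not overlap, and the difference was 0.58 ± 0.26 (SE, 95% interval -0.07 to 1.23, adjusted p = 0.870). A second probe (mMC017400) read 6.98 and 7.70 against 7.33, 7.24 and 7.40, with overlap and a difference of 0.02, and the third was found on no array. The probe sequences were not used here, so which of them reports Cd8b1 in this tissue was not tested. In the authors' deposited table, which holds a value for the bad spot, the log2 values of the bright probe were 0.45 and 0.75 against 0.24, -0.19 and -0.05, a difference of 0.60 that did not pass either.

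Cd4, which marks helper T cells and is also carried by some macrophages, was found on WT littermate replicates 2 and 3 only. It read 6.56 and 6.88 in villin-TLR4 and 6.89, 6.70 and 6.86 in WT littermates. These levels lay at the floor of the arrays, so no fold is given.

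**Figure D3:**
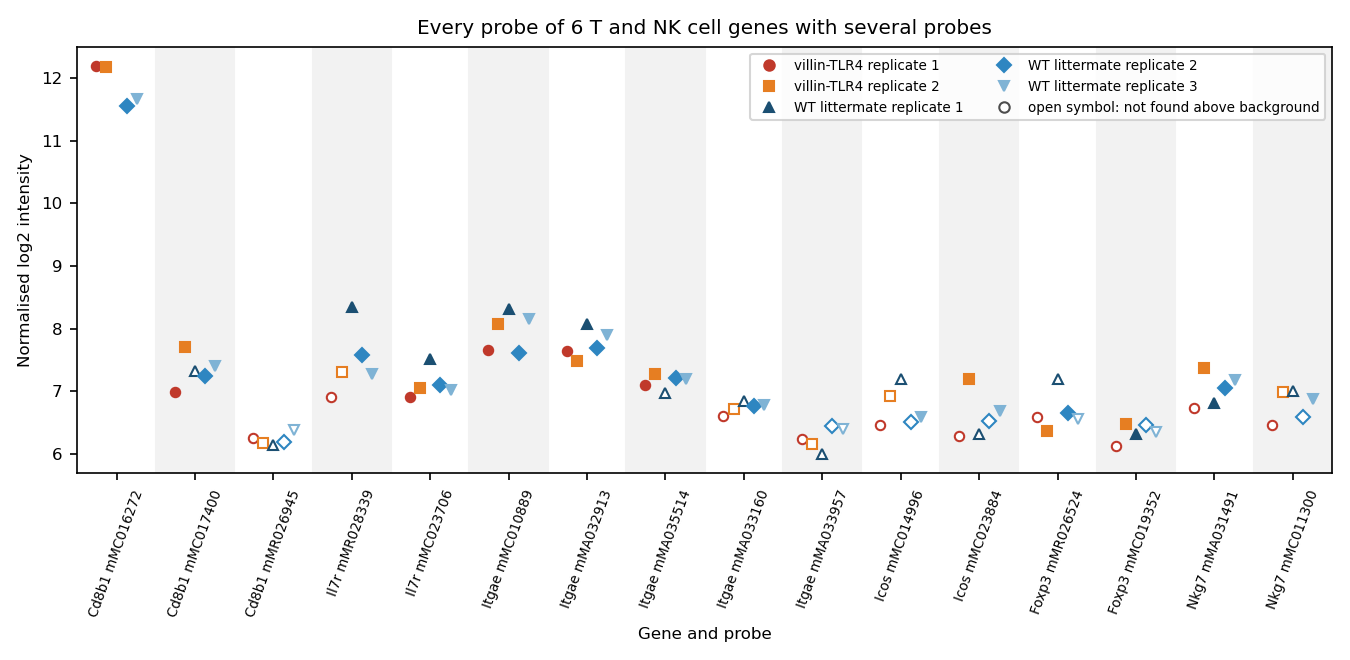
The y axis gives the normalised log2 intensity of every probe of 6 genes on the 5 arrays, with open symbols where a probe was not found above background. The bright Cd8b1 probe reads 11.55 to 12.19 and the second 6.98 to 7.70.

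The proximal signalling genes followed the CD3 chains on the villin-TLR4 arrays. Lck, the kinase that phosphorylates the CD3 chains, read 7.25 and 8.15 in villin-TLR4 and 7.80, 7.71 and 8.04 in WT littermates, found on every array. The villin-TLR4 samples held both the lowest and the highest value, and the difference was -0.15 ± 0.33. Zap70, the kinase that docks on phosphorylated CD3 and zeta chains, read 7.36 and 7.83 against 7.75, 7.51 and 7.47. Its difference of 0.02 ± 0.26 had an interval of -0.60 to 0.64. Lat, the membrane adaptor, read 7.29 and 7.88 against 7.72 and 7.79 on WT littermate replicates 2 and 3, with the bad spot of replicate 1 dropped, and gave -0.17 ± 0.31.

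Among the costimulatory receptors, Cd28 and Ctla4 had the largest positive differences with those of the coreceptor Cd8b1. Cd28, the main costimulatory receptor of T cells, read 7.15 and 7.68 in villin-TLR4 and 6.89, 6.73 and 6.79 in WT littermates. Both villin-TLR4 samples lay above all WT littermate samples, of which replicate 1 was not found. The WT littermate levels lay 0.62, 1.5 and 1.97 background SD above background, so that side of the comparison was near the floor of the arrays. The difference was 0.61 ± 0.26 (SE, 95% interval -0.01 to 1.23, limma adjusted p = 0.870), and it stayed between 0.35 and 0.83 without each array in turn. With Cd8b1, Cd28 was 1 of 2 members whose groups did not overlap, both higher in villin-TLR4, or 9.09% of members beside 26.1% of all genes (13% with villin-TLR4 above and 13.1% below). A second Cd28 probe was found on no array.

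Ctla4 (probe mMC018651), the inhibitory counterpart of Cd28 that is high on regulatory T cells, had the widest range of all members. It read 8.27 and 11.20 in villin-TLR4 and 9.96, 7.51 and 7.38 in WT littermates, found on every array. It was high on villin-TLR4 replicate 2 and WT littermate replicate 1 and low on the other 3 arrays, and the groups overlapped. The difference was 1.45 ± 1.08 (SE, 95% interval -1.15 to 4.05, adjusted p = 0.870), 2.36 without WT littermate replicate 1 and -0.015 without villin-TLR4 replicate 2. The log2 values in the authors' deposited table had the same order, from 3.52 on villin-TLR4 replicate 2 to -1.16 on WT littermate replicate 3. Foxp3, the transcription factor of regulatory T cells, had 2 probes, each found on 1 array of each genotype and within 2 background SD of background on all 5 arrays. The brighter read 6.58 and 6.36 against 7.20, 6.65 and 6.55, and the other 6.11 and 6.48 against 6.32, 6.46 and 6.35. They differed in which array was highest, and at these levels no comparison with Ctla4 can be made. Icos, the inducible costimulator, which neighbours Cd28 and Ctla4 on chromosome 1, read 6.29 and 7.19 against 6.32, 6.52 and 6.68, found on villin-TLR4 replicate 2 and WT littermate replicate 3. Ctla4 is represented by a single probe, so its pattern has no second measurement on these arrays.

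The adhesion and scavenger-type receptors overlapped between the genotypes. Cd2, which binds CD48 in the mouse, read 7.09 and 7.80 in villin-TLR4 and 8.52, 7.62 and 7.55 in WT littermates, a difference of -0.46 ± 0.40 that came to -0.17 without WT littermate replicate 1. Cd6, a receptor for the adhesion molecule ALCAM, read 7.01 and 7.86 against 7.46, 7.09 and 7.06, a difference of 0.23 ± 0.33. Cd5, a negative regulator of T cell receptor signalling, read 6.34 to 6.91 and was found on WT littermate replicate 3 alone, the array with its lowest level.

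The cytokine receptor genes gave differences of -0.63 to 0.07. Il2rg, the common gamma chain shared by the receptors for IL-2, IL-7 and IL-15, read 8.50 and 9.18 in villin-TLR4 and 9.22, 9.22 and 9.10 in WT littermates. Villin-TLR4 replicate 1 alone lay apart, and the difference of -0.34 ± 0.28 was 0.001 without it. Il7r, the IL-7 receptor alpha chain of naive and memory T cells and innate lymphoid cells, had its brighter probe at 6.90 and 7.31 against 8.35, 7.58 and 7.28, found on all WT littermate arrays and on neither villin-TLR4 array. By that probe the WT littermate mean was 1.54-fold higher, and 1.25-fold higher without WT littermate replicate 1. For these folds the dim group was set at the higher of its own signal and the lowest clear signal of its array. They are estimates and not minima, since the groups overlapped and the 95% interval of the fit was -1.53 to 0.26 (limma adjusted p = 0.870). The probe entered the test through the WT littermate arrays alone. The second Il7r probe was found on all 5 arrays at 6.90 and 7.04 against 7.51, 7.09 and 7.01, a difference of -0.24. Il2rb, the beta chain used for IL-2 and IL-15 by NK and memory CD8 T cells, read 6.63 and 7.35 against 6.89, 6.98 and 6.90 and gave 0.07 ± 0.28.

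NK receptors were at the edge of detection. Klrd1, the CD94 chain of the inhibitory receptor of NK and some CD8 T cells, read 6.63 and 7.09 in villin-TLR4 and 8.27, 7.06 and 7.33 in WT littermates. The highest value was on WT littermate replicate 1, where the probe was not found, and the difference of -0.69 ± 0.41 (SE, limma adjusted p = 0.870), the most negative of the members, was -0.38 without that array. Klrb1c, which encodes NK1.1 in C57BL/6 mice, read 7.09 and 6.81 against 7.01, 7.00 and 7.11, a difference of -0.09 ± 0.23. Ncr1, which encodes the activating NK receptor NKp46, stayed at 5.96 to 6.11 and was found on no array. Killer-cell lectin-like receptors form families of similar sequence, so their probes may share signal.

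Cytotoxic and effector genes were mostly not found. The granzymes Gzma and Gzmb and the pore-forming protein Prf1, the contents of the cytotoxic granule, read 5.93 to 6.93, 5.99 to 6.30 and 6.17 to 6.44 and were found on no array. Nkg7, a granule membrane protein, read 6.72 and 7.37 in villin-TLR4 and 6.81, 7.04 and 7.18 in WT littermates, a difference of 0.04 ± 0.29. Ccl5, a chemokine of activated T and NK cells, read 6.65 and 7.84 against 7.23, 7.43 and 7.44. The villin-TLR4 samples differed by 1.20, with replicate 1 not found, and the genotypes by -0.12 ± 0.38.

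For gut homing, Itgae was the member with the most probes. Its brightest probe (mMC010889), found on every array, read 7.66 and 8.07 in villin-TLR4 and 8.31, 7.61 and 8.15 in WT littermates, a difference of -0.16 ± 0.30. A second probe found on every array (mMA032913) read 7.64 and 7.49 against 8.08, 7.69 and 7.90, without overlap, a difference of -0.33. The other probes gave -0.13 to 0.06. Of these mMA033160, found only on WT littermate replicates 2 and 3, also showed no overlap, at 6.60 and 6.72 against 6.85, 6.76 and 6.77. Ccr9, the chemokine receptor that directs T cells mainly to the small intestine, stayed at 6.22 to 6.67 and was found on no array. The lineage transcription factors Tbx21 of type 1 cells (6.25 to 6.49) and Gata3 of type 2 cells (6.20 to 6.72) were not found either.

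Other genes of T and NK cell biology were taken from 6 lists, and 0 of their members passed. Of 28 genes of T cell receptor signalling and identity, 16 were tested, 11 of them below 0, with a median of -0.19. The pan-leukocyte gene Cd53 read 9.72 and 10.31 in villin-TLR4 and 11.60, 10.62 and 10.44 in WT littermates, and Vav1, an exchange factor downstream of the receptor, 8.30 and 8.40 against 9.35, 8.43 and 8.63. Their differences were -0.87 ± 0.41 and -0.45 ± 0.33. They were among 4 of the 16 genes whose groups did not overlap (all genes 26.1%), all 4 lower in villin-TLR4 (all genes 13.1%). Among these 4, a gene was found on WT littermate arrays alone and so entered the test through the group where it read higher. Another had no value on WT littermate replicate 1. Fyn, Lcp2 and Ets1, also below 0, were likewise found on WT littermate arrays alone. Of 25 helper and innate lymphoid genes 11 were tested (median -0.10), and the signature cytokines Ifng, Il17a, Il17f, Il22, Il4 and Il2 had probes that did not pass the filter.

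Of 24 NK and cytotoxic genes 9 were tested, 8 below 0 (median -0.29). Klrb1b, an inhibitory NK receptor, was found on all WT littermate arrays and on neither villin-TLR4 array, and entered the test through the former alone. With the dim group set as for Il7r, the WT littermate mean was 1.34-fold higher, and 1.11-fold without replicate 1. These are estimates and not minima, since the fitted difference was -0.79 ± 0.37 (SE, 95% interval -1.67 to 0.10, limma adjusted p = 0.870). The second Klrb1b probe, also found on 3 arrays, gave a difference of -0.17 in place of -0.79. Groups did not overlap for 2 of the 9 genes (all genes 26.1%). Both were found on no villin-TLR4 array, so they entered the test through the group where they read higher. Klrg1, also below 0, was likewise found on WT littermate arrays alone. Of 24 gut homing and trafficking genes 20 were tested, 16 below 0 (median -0.19).

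Of 19 checkpoint and costimulator genes 14 were tested, 10 below 0 (median -0.18). Groups did not overlap for 3 of the 14 (all genes 26.1%). These were both enzymes of the pathway from extracellular ATP to adenosine and a gene found on WT littermate arrays alone. Lag3, among those below 0, was also found on WT littermate arrays alone. Nt5e, which encodes CD73, read 12.14 and 11.73 in villin-TLR4 and 10.76, 11.04 and 11.03 in WT littermates, a difference of 0.99 ± 0.25 (SE, limma adjusted p = 0.870). Entpd1, which encodes CD39, read 7.74 and 7.69 against 8.90, 8.34 and 8.24, a difference of -0.77 ± 0.28 (SE, limma adjusted p = 0.870). Of 14 genes of the IL-2, IL-7 and IL-15 axis 12 were tested, 6 above and 6 below 0 (median -0.09). Its largest difference without overlap was that of Socs1, an inhibitor of cytokine signalling, with 8.57 and 8.73 against 11.14, 9.88 and 8.78, or -1.28 ± 0.64, and a second probe gave -0.74. Groups did not overlap for 4 of these 12 genes (all genes 26.1%).

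Markers of other cells varied beside these values. The 5 measured neutrophil markers had a mean level of 11.44 on WT littermate replicate 1 and of 6.87 to 7.92 on the other arrays, and the 9 macrophage and dendritic cell markers 10.59 against 9.35 to 9.90. That array also gave the highest level of the NK list, 8.92 against 7.59 to 7.98, which holds Tyrobp, Fcer1g and Srgn, genes of myeloid cells too. The part of these cells in the levels of Cd53, Socs1 and the NK list on that array was not tested. The 9 B and plasma cell markers read 8.08 and 8.59 in villin-TLR4 and 8.003, 8.14 and 8.55 in WT littermates, with replicate 2 above replicate 1 in villin-TLR4 as for the T cell genes. Ms4a1 and Pax5 among them did not pass the filter. Macrophage and dendritic cell markers (9.535 and 9.898) had the same order in villin-TLR4. So did the mean of 3 mast cell markers (7.72 and 7.815). Kit, the brightest of these, had the reverse order (10.19 and 10.00), and Mcpt1 was found on neither villin-TLR4 array. Neutrophil (7.917 and 7.654), epithelial (12.848 and 12.806) and smooth muscle markers (12.34 and 11.931) had the reverse order. Smooth muscle markers were lowest on WT littermate replicate 1, at 10.54 against 11.68 to 12.54.

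**Figure D4:**
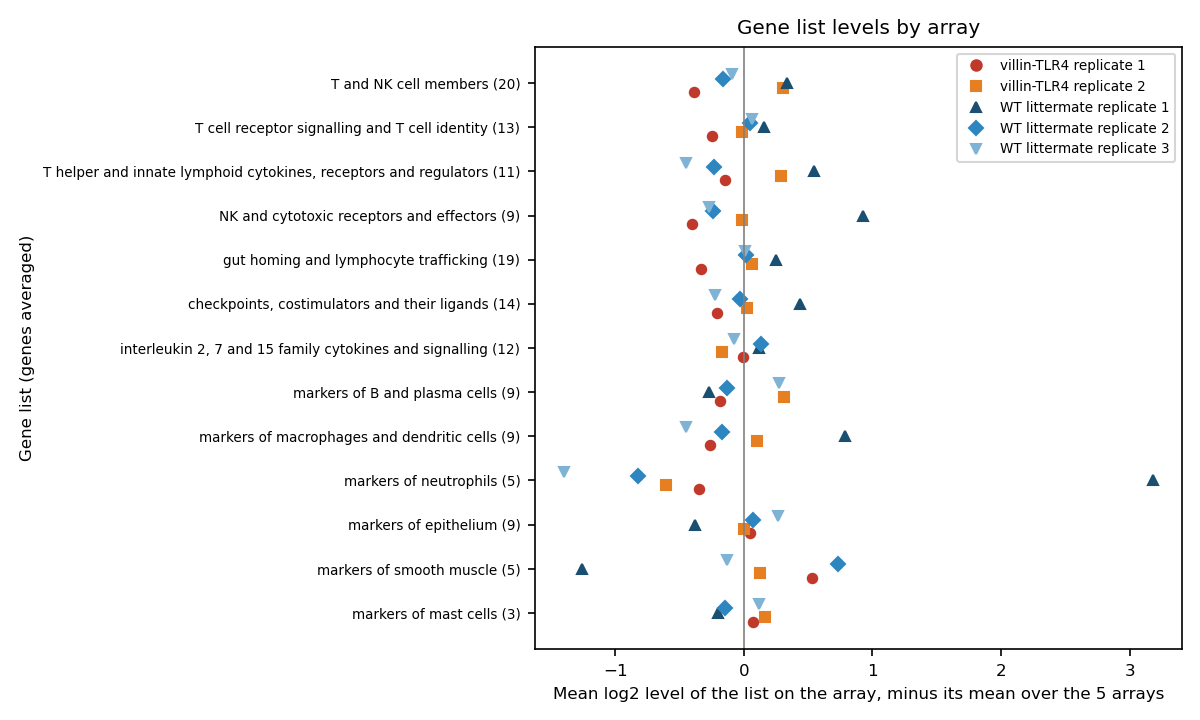
The x axis gives the mean log2 level of each gene list on each array minus its mean over the 5 arrays, with the number of genes averaged in brackets. The T and NK cell genes are lowest on villin-TLR4 replicate 1 and nearly level on villin-TLR4 replicate 2 and WT littermate replicate 1, and the neutrophil markers are far highest on the latter.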

How the data were processed

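Total RNA from colon was made into biotin-labelled cRNA, per the labels' protocols. The deposited arrays give foreground and background intensity at 635 nm for 38880 spots, read by GenePix Pro 4.1.1.4 and not normalized, per the file headers. A deposited flag score marks each spot as found (0), not found (-50), absent (-75) or bad (-100). The deposited value table holds a linear ratio per probe with medians of 0.98 to 1.18. On each array it equals the background-subtracted median times a constant (within 0.02 on the log2 scale for 100% of spots not marked bad), so scale and direction are known and the gene centre is not. It holds values for 296 bad spots of WT littermate replicate 1.

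The foreground median was background-corrected by normexp with an offset of 50 (limma 3.58.1, R 4.3.3), bad spots were set to missing, 3802 control spots were left out, and 35078 gene probes were quantile normalized on the log2 scale. Accessions matched to a GRCm38.p6 gene table named 23071 probes (15597 symbols). A probe was tested if found on at least 2 arrays, and the probe with the highest mean stood for its gene. Genotypes were compared by limma's moderated linear model (lmFit, eBayes; two-sided) and p-values adjusted by Benjamini and Hochberg's method over 15051 genes, at 0.05. Per the file headers the scans fell on 3 days: the first held villin-TLR4 replicate 1, the last held replicate 2 of both genotypes, and the day between held the remaining WT littermate arrays. By the labels villin-TLR4 replicate 1 was female and replicate 2 male, so these came from separate mice. For the WT littermates, all female, nothing in the labels states that the samples are separate mice. The p-values reflect only the spread between the samples measured, and the part from WT littermates may be technical.

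The members and lists were chosen with earlier results of these data known. All members are reported, and of each other list up to 3 genes with the largest difference and no overlap were to be named. A gene chosen this way is not reported here. The code was tested on simulated data. Alternatives are given in the closing section.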

Additional observations from a re-analysis of the deposited data

How the results depend on the processing

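No member passed under any alternative run, a threshold of 0.10 included. Over all genes 0 passed in the main fit, 4 with scan day as a block and 20 with the replicate block, both of which leave few residual degrees of freedom, and 0 in the others. The median over members (-0.13) became 0.35 with scan day as a block and ranged from -0.39 to 0.10 without each array in turn. Deviations of same-numbered arrays correlated at -0.15 and -0.21, and so few pairs cannot decide whether the labels' replicate numbers pair the samples. With the replicate block the median over members was -0.07 and no call of a member changed.

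Many differences turned sign, those of Klrd1, Ctla4, Cd3g and Cd2 among the larger ones, and none of them was called. The scan day block compares a single array of each genotype, and with it they became 0.42 for Ccl5, 0.18 for Cd2, 0.61 for Cd3d, 0.17 for Cd3e, 0.46 for Cd3g, 0.18 for Cd4, 0.46 for Itgae, 0.034 for Klrd1, 0.15 for Lat and 0.45 for Lck. With the replicate block Lat gave 0.15 and Zap70 -0.035. With scaling to the 75th percentile Icos gave -0.094, Il2rb -0.18, Nkg7 -0.25 and Zap70 -0.068. Without a filter Icos gave -0.078 from another probe, and without background correction Klrb1c gave 0.19. In the authors' deposited table, which leaves out some arrays for these genes, Ccl5 gave 0.62 and Cd3g 0.69. Without each array in turn the ranges were -0.74 to 0.46 for Ccl5, -0.70 to 0.14 for Cd3d, -0.43 to 0.075 for Cd3e, -0.27 to 0.059 for Cd4, -0.19 to 0.63 for Cd6, -0.015 to 2.91 for Ctla4, -0.30 to 0.40 for Il2rb, -0.67 to 0.001 for Il2rg, -0.36 to 0.044 for Itgae, -0.215 to 0.045 for Klrb1c, -0.47 to 0.115 for Lat, -0.60 to 0.30 for Lck, -0.30 to 0.34 for Nkg7 and -0.22 to 0.25 for Zap70. Where no further value is named, the cause was not tested. The mean of all probes gave Cd8b1 1.01 in place of 0.58, since the bad spot removes the bright probe from the mean on 1 array. The mean without Ctla4 and the order among members found on all 5 arrays were chosen after seeing the data. Signal over background limits these results: of the 22 tested probes, 8 lay over 2 background SD on WT littermate replicate 1 and 12 to 19 on the others.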

Other observations

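Mzb1 and Jchain, plasma cell markers, had positive differences without overlap, as 2 of the 9 tested B and plasma cell markers (all genes 26.1%, 13% with villin-TLR4 above). Mzb1, a chaperone of plasma cells, read 10.63 and 11.53 in villin-TLR4 and 10.11, 8.76 and 9.77 in WT littermates, a difference of 1.53 ± 0.48 (SE, limma adjusted p = 0.870). Jchain, the joining chain of secreted IgA and IgM, read 13.12 and 13.00 against 12.85, 11.57 and 12.74, a difference of 0.68 ± 0.42. Kit, a receptor of mast cells and of the pacemaker cells of the gut wall, read 10.19 and 10.00 against 6.76, 8.83 and 9.80, lowest on WT littermate replicate 1, where it was not found and where smooth muscle markers were lowest too. The mast cell protease Mcpt1 read 6.35 and 6.67 against 7.23, 7.07 and 6.88 and was found on 2 WT littermate arrays and on no villin-TLR4 array. None of these differences passed.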
